A study of Homo sapiens with 12 samples.

Results

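The cytosolic ribosomal protein genes encode the proteins that, together with ribosomal RNA, form the ribosome of the cytoplasm. They were taken from the gene table as the protein-coding genes whose symbol is RPL or RPS followed by digits with an optional A or X, together with RPLP0, RPLP1, RPLP2 and RPSA. The S6 kinases and the paralogs whose symbols end in L were left out. This gave 77 genes, 46 of the large subunit and 31 of the small subunit, of 58051 genes listed and 34866 with at least 1 count. FAU and RACK1, which belong to the ribosome but carry other symbols, lie outside the rule and are given separately.

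RNA came from MDA-MB-231, a cultured triple-negative breast cancer line, in 4 groups of 3 libraries each. siControl cells received a non-targeting siRNA pool, siNELFA cells a pool against NELFA, siYAP cells a pool against YAP1, and siNELFA+siYAP cells both pools. The siRNA dose was 50 to 100 nM in all groups, and the labels give both 48 h and 72 h after transfection for the harvest while the methods give 72 h. NELFA is a subunit of the negative elongation factor, which holds RNA polymerase II shortly after the start of a gene, and YAP is the transcriptional co-activator at the end of the Hippo pathway. The question here was whether depletion of either factor, or of both, changed the transcripts that supply the ribosome. All groups are 1 cell line with transient and partial knockdown. Because these are bulk libraries, fewer cells and less RNA per cell cannot be told apart.

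Library totals ranged from 9608145 to 18803104 counts, and every ribosomal protein gene had at least 558 counts in every library. Levels are given as CPM, the counts of a gene scaled to a common library size. The NELFA level of siControl averaged 26.9 ± 1.37 CPM (mean ± SD, n = 3) and that of siYAP 27.1 ± 5.99, whereas siNELFA cells had 8.71 ± 1.46 and doubly depleted cells 7.09 ± 0.977. YAP1 averaged 273 ± 27.9 CPM for siControl, 264 ± 24.1 for siNELFA, 43.1 ± 4.73 for siYAP and 41.7 ± 2.16 for the double knockdown. Both targets were thus low where the labels name them, although NELFA in siNELFA passed the adjusted threshold of edgeR only with the replicate number as a block (adjusted p = 0.381 without and 0.000385 with it). Of the 6 genes that mark this line, VIM, CD44, ZEB1, AXL, KRT18 and MSN, each had counts in all libraries, while of the receptor genes ESR1 and PGR had at most 6 counts and ERBB2 had 422 to 1474. Of the markers of other cell types, KRT5, CD3E and ALB had no counts, PTPRC had at most 4 and PECAM1 had 30 to 85. The first replicate of siControl, of siNELFA and of siYAP was set off from its group. Those 3 libraries held 230, 599 and 169 counts of CDH1, the epithelial cadherin, against at most 17 in each of the other 9 libraries. The summed level of the 3 epithelial markers (CDH1, EPCAM and KRT5) was 33.5 to 56.9 there, in CPM of the library total, against 4.63 to 9.89 in replicates 2 and 3 and 5.86 to 8.87 in siNELFA+siYAP. By group that sum ranged from 7.98 to 39.97 in siControl, 4.63 to 56.9 in siNELFA and 5.82 to 33.5 in siYAP. The 6 line markers summed to 4155 to 4490 CPM in these 3 libraries, 4810 to 6011 in replicates 2 and 3 and 5721 to 5789 in the double knockdown, and the 4 other markers (PTPRC, PECAM1, CD3E and ALB) to 5.01 to 8.53, 1.80 to 4.13 and 2.13 to 5.19. Counts of calls, medians, role groups and the relation to GC content are therefore also given without the replicate 1 libraries. The library names of the double knockdown are numbered within a single N1, unlike those of the other groups, which run from N1 to N3, and the labels do not say that its 3 libraries came from separate cultures. The p-values, standard errors and separated genes of that comparison may then measure technical spread only.

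A ribosome holds 1 copy of nearly every ribosomal protein, so cells keep the mRNAs of these genes abundant and roughly matched. Many of the transcripts begin with a C followed by a run of pyrimidines, the 5′ terminal oligopyrimidine (TOP) tract, through which their translation follows growth signals and mTOR activity. Of the 77 genes, 62 had a start region in RefSeq (GRCh38.p14). In 46 of these (74.2%), at least 1 listed start was a C followed by at least 4 more pyrimidines, against 4.98% of 27243 other symbols. In the 300 bases around the start (250 before and 50 after), CCGGAA, the core of ETS factor sites, was found on either strand in 35 genes (56.5%, against 5452 of the 27243 others). CTCTTTCC was found in 11 (17.7% against 3.67%), TATAAA in 5 (8.06% against 3814 of 27243), CACGTG in 4 (6.45% against 8.78%) and GGAATG, the core of the sites of the YAP partner TEAD, in 5 (8.06% against 16.7%). The start windows of the genes on which the comparisons below turn are shown from 15 bases before the start to 15 bases from it, 5′ to 3′ on the gene's own strand, with the pyrimidine run that begins at the start in capitals. The first 4 are genes that were low in siNELFA+siYAP, the next 3 are the genes highest in siNELFA by fold change, and the last 3 lie on the X chromosome and differed by replicate number.
RPS25 (chr11:119018329-119018358, minus strand): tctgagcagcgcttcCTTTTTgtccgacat
RPS3A (chr4:151099613-151099642, plus strand): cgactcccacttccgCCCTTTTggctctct
RPL31 (chr2:101002274-101002303, plus strand): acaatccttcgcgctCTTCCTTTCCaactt
RPL14 (chr3:40457324-40457353, plus strand): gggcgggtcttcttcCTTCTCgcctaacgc
RPS28 (chr19:8321481-8321510, plus strand): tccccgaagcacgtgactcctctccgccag
RPL18 (chr19:48619164-48619193, minus strand): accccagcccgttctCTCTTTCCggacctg
RPS16 (chr19:39435935-39435964, minus strand): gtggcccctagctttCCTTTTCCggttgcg
RPL39 (chrX:119791616-119791645, minus strand): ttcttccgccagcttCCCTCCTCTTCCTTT
RPL36A (chrX:101390996-101391025, plus strand): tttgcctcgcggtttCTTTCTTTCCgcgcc
RPS4X (chrX:72277234-72277263, minus strand): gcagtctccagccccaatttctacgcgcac
A pyrimidine run from a C stood at the listed start of genes that were low, of genes that were high and of genes that differed by replicate number. The listed starts of RPS28 and RPS4X begin with an A.

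On the length-scaled TPM values of the authors, the 77 genes were all among the 500 most abundant of the table. Their mean TPM over the 12 libraries had a median of 745.7 and spanned a 10.6-fold range, and 71 of the 77 lay within 2-fold of the median. The highest were RPS18, a protein of the small subunit head, at 1966 ± 144 TPM (SD over 12 libraries), RPS24 at 1815 ± 185, RPL7A at 1405 ± 143, RPL26 at 1375 ± 169 and RPS23, a protein of the decoding centre, at 1359 ± 101. The lowest were RPS26, which lies at the mRNA exit channel, at 186 ± 22.5 TPM, RPL22 at 217 ± 36.3, the stalk protein RPLP1 at 277 ± 25.1, RPS4X at 330 ± 82.7 and RPS9 at 378 ± 44.1. The ranges of RPS18 (1815 to 2311) and RPS24 (1538 to 2270) overlapped over the 12 libraries, as did those of RPS26 (147 to 218) and RPL22 (182 to 315). The median was 788 TPM for the large and 680 for the small subunit genes. The order of the genes was similar between libraries, with a lowest Spearman correlation across the 77 genes of 0.788 between any pair of libraries. It depended on the scale of length, since mean TPM and CPM per kilobase of the canonical transcript correlated by 0.455 across the same genes.

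**Figure D1:**
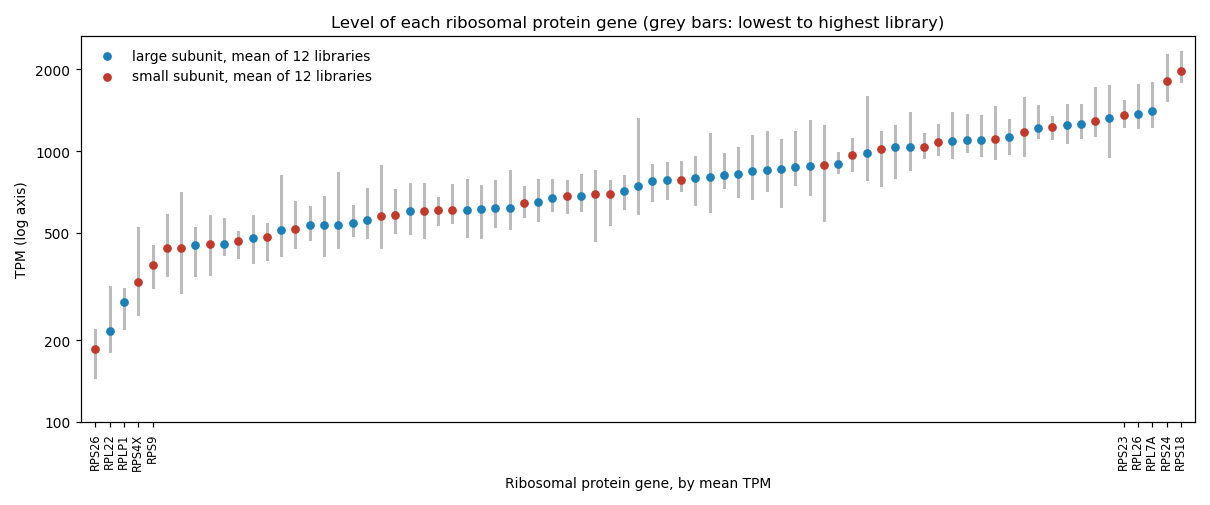
TPM of each ribosomal protein gene on a log axis, with the mean of 12 libraries as a point and the range from the lowest to the highest library as a grey bar, with the 5 lowest and 5 highest genes named. The means run from 186 TPM for RPS26 to 1966 TPM for RPS18, and most neighbours in the order have overlapping ranges.

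The share of all counts taken by the 77 genes together lay between 2.59% and 2.96% in every library. Replicates 1 to 3 of siControl gave 2.68%, 2.89% and 2.80%, and those of siNELFA 2.85%, 2.88% and 2.77%. The siYAP libraries gave 2.59%, 2.96% and 2.64%, and the double knockdown 2.69%, 2.69% and 2.73%. As shares of all counts, the groups overlapped in every comparison with siControl. As shares of protein-coding counts, the double knockdown (2.970%, 3.017% and 3.005%) lay below siControl (3.05%, 3.21% and 3.08%), with a difference of -0.115 percentage points and an exact permutation p of 0.1. Of all counts, the mean was 2.79% ± 0.103 in siControl, 2.83% ± 0.0565 in siNELFA (a difference of 0.044 percentage points, exact permutation test, two-sided, p = 0.7), 2.73% ± 0.200 in siYAP (a difference of -0.0577, exact permutation p = 0.7) and 2.71% ± 0.0188 in siNELFA+siYAP (a difference of -0.0853, exact permutation p = 0.4, over libraries that may not be separate cultures). With 3 libraries against 3 the smallest possible p is 0.1. As a share of the TPM total, the genes took 6.70% ± 0.581 for siControl, 6.06% ± 0.0993 for siNELFA, 6.14% ± 0.235 for siYAP and 5.88% ± 0.239 for the double knockdown, with exact permutation p-values of 0.3, 0.3 and 0.2 against siControl. The small difference in siNELFA was positive in counts and negative in TPM.

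After knockdown of NELFA, no ribosomal protein gene changed past the adjusted threshold. Of the 77 genes, 56 had a higher and 21 a lower fitted value than siControl. Their median log2 fold change was 0.09 against 0.00 over the 17727 genes tested, and they ranged from -0.45 to 0.37. The small subunit genes had a median of 0.13 (25 of 31 higher) and the large subunit genes one of 0.07 (31 of 46 higher). On log2(TPM + 1) the median of the genes was -0.12, but that of all genes was -0.19, so relative to all genes the list lay higher by 0.07 on that scale and by 0.09 on the counts. None of the 77 genes passed an adjusted p of 0.05 by edgeR's quasi-likelihood test, where 0.00564% of all genes did, and none passed a nominal p of 0.05, where 4.46% of all genes did. DESeq2 and limma on TPM called none either. The 95% confidence interval of a gene's log2 fold change extended 0.32 to 0.81 to either side of the estimate, with a median of 0.38. This width is not the detection limit of the adjusted test. NELFA itself, at a log2 fold change of -1.63, was not called in the same fit (edgeR adjusted p = 0.381). The siNELFA and siControl libraries did not overlap for 8 genes that were higher (10.4% of the 77, against 6.22% of all genes) and for 2 that were lower (2.6%, against 5.91%).

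RPS25, a protein of the small subunit head that some viral internal ribosome entry sites require, had the lowest fold change after siNELFA. The gene lies on the minus strand of chromosome 11 (GRCh38, 119015712 to 119018691). Its level was 388, 304 and 271 CPM for siControl, 273, 242 and 191 for siNELFA, 319, 306 and 255 for siYAP, and 196, 213 and 220 for the double knockdown. Within each replicate number the siNELFA library was lower than the siControl library, although siNELFA replicate 1 lay just above siControl replicate 3. The mean in siNELFA was 73.4% of that in siControl (log2 fold change -0.45, SE 0.21, 95% interval -0.94 to 0.05, edgeR adjusted p = 0.9996). Same-numbered libraries of siControl, siNELFA and siYAP departed alike from their group means, so the comparison was also fitted with the replicate number as a block. In that fit 5.21% of all genes passed the adjusted threshold, and RPS25 was the 1 ribosomal protein gene among them, being lower in siNELFA (log2 fold change -0.44, edgeR adjusted p = 0.0158). With the block, 13 of the 77 genes (16.9%) passed a nominal p of 0.05, 10 of them higher, against 20.2% of all genes. Without the replicate 1 libraries and without the block, RPS25 stood at -0.40 (edgeR adjusted p = 0.239). Fits by DESeq2 and by limma with the block were added after seeing the data. DESeq2 with the block called RPS25 alone (adjusted p = 0.00178), whereas limma on log2(TPM + 1) with the block did not (adjusted p = 0.0696). With correction for GC content and length added to the block, 6 of the 77 genes (7.79%) were called against 14.2% of all genes. RPS25 and RPL23 were among those lower in that fit, and RPS12, RPS16 and RPS20 were higher.

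RPL23, which sits at the face between the subunits, was 475, 445 and 410 CPM in siControl and 394, 375 and 321 in siNELFA, without overlap (log2 fold change -0.29, SE 0.16, edgeR adjusted p = 0.9996, and 0.0715 with the block). RPL31, at the rim of the peptide exit tunnel, was 406, 313 and 291 CPM in siControl and 335, 284 and 260 in siNELFA (log2 fold change -0.20, SE 0.19). These 2 genes followed RPS25 in the order of fold changes, and neither passed a test at the adjusted threshold under the block. At the other end, RPS28, a small subunit protein near the mRNA exit site, was 90.4, 114 and 123 CPM in siControl and 164, 122 and 138 in siNELFA (log2 fold change 0.37, SE 0.19). RPL18 was 246, 344 and 325 CPM in siControl and 376, 384 and 368 in siNELFA (log2 fold change 0.30, SE 0.17). RPS16 was 346, 352 and 334 CPM in siControl and 479, 416 and 376 in siNELFA (log2 fold change 0.30, SE 0.16). The libraries of RPL18 and RPS16 did not overlap between the groups, while those of RPS28 did, and no gene of the 3 passed an adjusted threshold in the fits without or with the block alone.

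**Figure D2:**
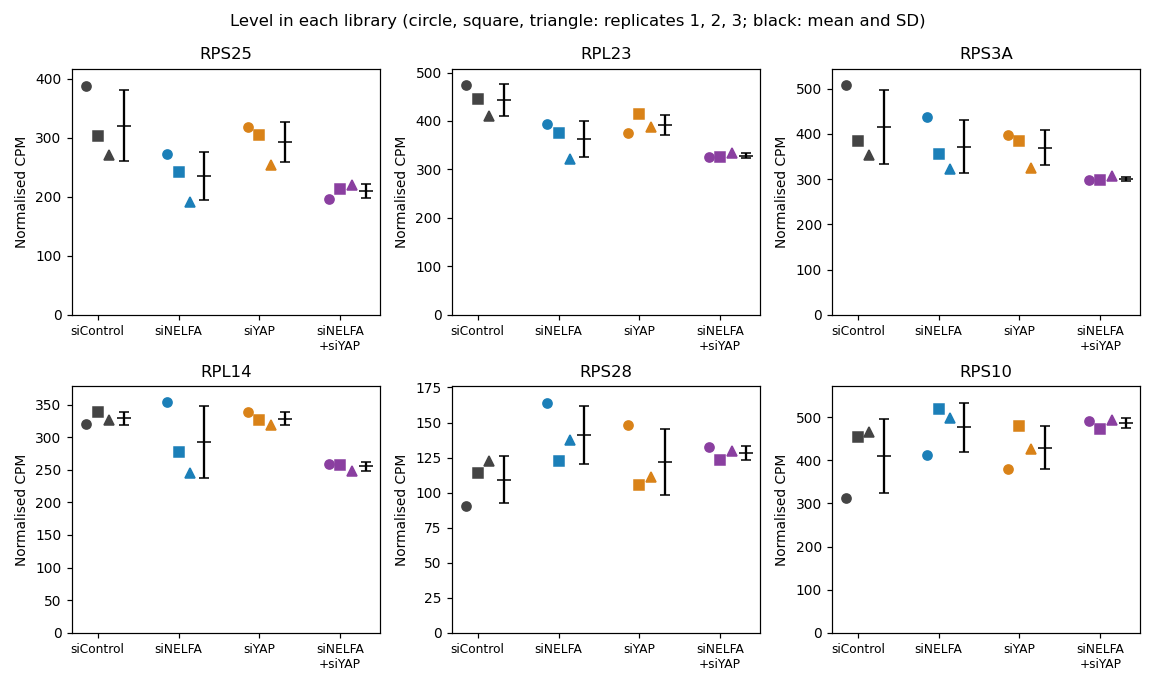
Normalised CPM of 6 ribosomal protein genes in the 12 libraries, with circles, squares and triangles for replicates 1, 2 and 3 and the group mean and SD in black. RPS25, RPL23, RPS3A and RPL14 are lower in siNELFA+siYAP than in every siControl library, and RPS28 and RPS10 are higher than in every siControl library.

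After knockdown of YAP, the ribosomal protein genes also showed no change past the threshold. Of the 77 genes, 23 had higher and 54 lower fitted values, with a median log2 fold change of -0.07 against -0.00 over the 17296 genes tested, and a range from -0.26 to 0.19. The adjusted threshold was passed by none of the 77 genes in edgeR, against 0.00578% of all genes, and a nominal p of 0.05 by none, against 1.3% of all genes. DESeq2 and limma on TPM called none, nor did the fit with the block. No gene was higher in all siYAP libraries than in all siControl libraries, against 4.12% of all genes. The 3 genes lower in all of them (3.9%, against 3.64% of all genes) were RPL7, RPS23 and RPS6, the latter being the substrate of the S6 kinases. The interval of a gene's log2 fold change extended 0.34 to 0.76 to either side. RPL22, an RNA-binding protein of the large subunit, had the lowest fold change with 182, 139 and 131 CPM in siControl and 129, 134 and 117 in siYAP (log2 fold change -0.26, SE 0.19). RPL37 followed at -0.24 (SE 0.24) and RPL7 at -0.24 (SE 0.17). The highest fold changes were those of RPL13 (0.19, SE 0.20), RPS28 (0.15, SE 0.21) and the stalk protein RPLP2 (0.10, SE 0.15). The groups overlapped for all of these genes but RPL7.

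After knockdown of both factors, a few ribosomal protein genes were low in all 3 libraries, whose names are numbered within a single N1. The median log2 fold change of the 77 genes was -0.03, against -0.03 over the 17533 genes tested, with 29 genes higher, 48 lower and a range from -0.63 to 0.23. With offsets for GC content and length the median of the 77 genes was -0.10 and that of all genes -0.02. No member passed the adjusted threshold in edgeR, against 0.428% of all genes. At a nominal p of 0.05, 6 members passed (7.79%, against 18.5% of all genes), all of them lower. They were RPS25, RPS3A, RPL23, RPL14, RPL31 and RPL10A. DESeq2 called RPS25 alone (adjusted p = 0.0367), where it called 5.88% of all genes, and limma on TPM called none. The libraries did not overlap with siControl for 11 genes that were lower (14.3%, against 13.9% of all genes) and 8 that were higher (10.4%, against 15.9%), so the shares of separated genes were near or below those of all genes.

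RPS25 was 196, 213 and 220 CPM in siNELFA+siYAP, below each siControl library, and its mean was 65.4% of that in siControl (log2 fold change -0.63, SE 0.16, 95% interval -0.997 to -0.257, edgeR adjusted p = 0.114). RPS3A, a small subunit protein near the mRNA exit site, was 508, 384 and 354 CPM in siControl and 298, 298 and 306 in siNELFA+siYAP (log2 fold change -0.48, SE 0.16, adjusted p = 0.18 by edgeR). RPL23 was 325, 326 and 334 CPM there, 74.0% of siControl (log2 fold change -0.45, SE 0.11, adjusted p = 0.101 by edgeR). In these 3 genes, every library of the double knockdown lay below every siControl library. RPL14 was 321, 339 and 326 CPM in siControl and 260, 258 and 248 in siNELFA+siYAP (log2 fold change -0.38, SE 0.09). RPL31 stood at -0.37 (SE 0.15) and RPL10A, the protein of the L1 stalk, at -0.29 (SE 0.11). Among the higher genes, RPS10 was 312, 454 and 466 CPM in siControl and 492, 472 and 495 in siNELFA+siYAP (log2 fold change 0.23, SE 0.16). RPS28 (0.22, SE 0.13) and RPLP1 (0.18, SE 0.15) followed. RPS10 shares its locus with a read-through gene to which part of its reads could be assigned.

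The count of calls in the double knockdown depended on siControl replicate 1, which was among the libraries that stood apart. Without that library 14 of the 77 genes passed the adjusted threshold (18.2%, against 24.4% of all genes). Of these, 11 were lower, among them RPS25, RPL14, RPL23, RPS3A, RPS2, RPS3, RPL10A and RPL31, and 3 were higher, RPS20, RPS27 and RPS12. RPS25 had a log2 fold change of -0.46 in that fit (edgeR adjusted p = 0.000127), RPL14 one of -0.39 and RPS12 one of 0.26. The siNELFA and siYAP comparisons on replicates 2 and 3 alone called none of the 77 genes, with medians of 0.06 and -0.04. The 3 comparisons share the siControl libraries, so their values are not independent of each other.

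Grouped by role, the members gave the following values. The stalk proteins RPLP0, RPLP1 and RPLP2 and the stalk base protein RPL12, which recruit the elongation factors, had log2 fold changes of 0.18, 0.19, 0.29 and -0.01 after siNELFA, 0.00, 0.10, 0.10 and 0.00 after siYAP, and 0.06, 0.18, 0.11 and -0.13 in the double knockdown. RPLP0 and RPLP2 did not overlap with siControl after siNELFA, both being higher in counts. On log2(TPM + 1) RPLP0 stood at -0.07 and RPLP2 at 0.02, against a median of -0.19 over all genes on that scale. RPL5 and RPL11, which with 5S RNA bind MDM2 and stabilise p53, lay at -0.01 and -0.02 after siNELFA, -0.14 and -0.09 after siYAP, and -0.14 and -0.02 in the double knockdown. RPL11 was among the least variable genes of the list, with a coefficient of variation of 5.15% over the 12 libraries. The 8 proteins of the peptide exit tunnel had medians of 0.04, -0.15 and -0.17 in the 3 comparisons, and all 8 were lower after siYAP. The 8 proteins of the mRNA channel and decoding site had medians of 0.09, -0.04 and -0.01. The 20 genes mutated in Diamond-Blackfan anemia, an inherited failure of red cell production, had medians of 0.11, -0.07 and 0.01. RPS19, the gene most often mutated in that disease, lay at 0.20 (SE 0.16), 0.05 (SE 0.16) and -0.03 (SE 0.10). No member of these role groups passed the adjusted threshold in the fits of all 6 libraries without the block. On replicates 2 and 3 the stalk group had medians of 0.04 after siNELFA and 0.02 after siYAP, the exit tunnel group 0.05 and -0.08, the mRNA channel group 0.10 and -0.07, and the Diamond-Blackfan group 0.09 and -0.03. In the double knockdown without siControl replicate 1, the exit tunnel median was -0.05 and that of the mRNA channel -0.03. The stalk median there was -5.5e-05, against 0.09 with all 6 libraries, and the Diamond-Blackfan median was 0.03. RPL5 and RPL11 had a median of -0.05 in that fit. On replicates 2 and 3 they had medians of -0.03 after siNELFA and -0.02 after siYAP.

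Other single members with known roles passed no test in the fits of all 6 libraries. In the double knockdown without siControl replicate 1, RPS3, RPS6 and RPL3 were lower (log2 fold changes of -0.24, -0.16 and -0.15, with adjusted p-values of 0.0094, 0.0298 and 0.0424 by edgeR). That fit called 18.2% of the 77 genes against 24.4% of all genes, over double-knockdown libraries that may not be separate cultures. RPSA, also known as the laminin receptor, had log2 fold changes of 0.14, -0.09 and 0.04 in the 3 comparisons. RPS27A, which is made as a fusion with ubiquitin, lay at 0.13, -0.06 and 0.17, and its libraries in the double knockdown (399, 415 and 414 CPM) exceeded those of siControl (339, 366 and 375). RPS6 was 458, 465 and 450 CPM for siControl, 446, 442 and 418 for siNELFA, 379, 448 and 389 for siYAP, and 408, 416 and 407 for the double knockdown. RPS6 thus lay below every siControl library in all 3 knockdown groups, by log2 fold changes of -0.07, -0.18 and -0.17 with standard errors of 0.14, 0.16 and 0.09. RPS3, at the mRNA entry site, lay at 0.01, -0.03 and -0.17. RPL3 and RPL4, core proteins of the large subunit, lay at -0.00 and 0.09 after siNELFA, 0.01 and -0.13 after siYAP, and -0.07 and 0.08 in the double knockdown. RPL41, the shortest ribosomal protein, lay at -0.04, -0.07 and -0.14. FAU and RACK1 lay at 0.27 and 0.08 after siNELFA, 0.09 and 0.00 after siYAP, and 0.19 and -0.03 in the double knockdown.

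With all libraries, the fold changes of the members followed the base composition of their transcripts, and without the replicate 1 libraries this relation was weak or absent. GC content of the canonical transcript ranged from 40.1% for RPL31 to 63.6% for RPL8. Across the 77 genes, log2 fold change and GC content correlated by 0.49 after siNELFA, 0.62 after siYAP and 0.30 in the double knockdown, and across all genes by 0.26, 0.46 and 0.22. On replicates 2 and 3 the correlation in the members was 0.15 after siNELFA and 0.06 after siYAP, and without siControl replicate 1 it was -0.05 in the double knockdown. These are descriptions across genes that share the same libraries. The 25 genes with the lowest GC content had median log2 fold changes of 0.01, -0.14 and -0.16 in the 3 comparisons, and the 25 with the highest had 0.18, 0.02 and -0.01. With offsets that remove the trend on GC and length over all genes, the correlation in the members was -0.08 after siNELFA, -0.55 after siYAP and -0.31 in the double knockdown, so its sign turned in all 3 comparisons. RPS25, at a GC content of 46.2%, lay below the other members of like composition in the plot for siNELFA and in that for the double knockdown.

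**Figure D3:**
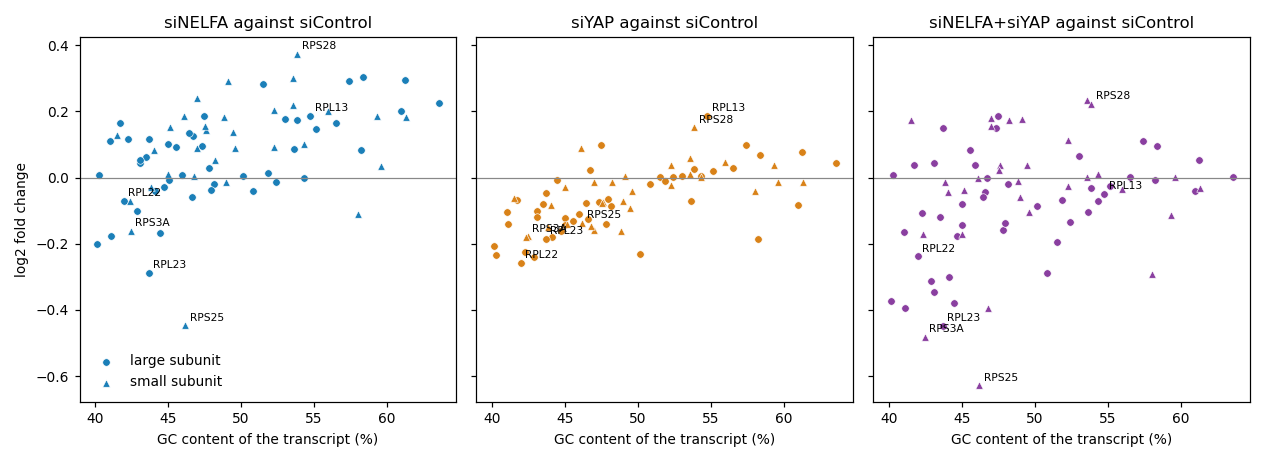
Log2 fold change of each of the 77 ribosomal protein genes (circles for the large, triangles for the small subunit) against the GC content of its transcript in percent, for the 3 comparisons with siControl. Genes of high GC content lie higher than genes of low GC content after siNELFA and siYAP with all 6 libraries (r = 0.49 and 0.62, against 0.15 and 0.06 on replicates 2 and 3), and RPS25 is the lowest point after siNELFA (-0.45) and in the double knockdown (-0.63).

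Differences by replicate number spanned a wider range than those by knockdown. In siControl, siNELFA and siYAP, 29 of the 77 genes (37.7%) differed by replicate number past the adjusted threshold in edgeR's F test, against 45.4% of all genes. Replicate 1 was higher than the mean of replicates 2 and 3 in 20 of the 29 genes and lower in 9. Over all 77 genes that difference, averaged over the 3 groups, ranged from -0.69 to 0.83 on the log2 scale, while replicate 3 differed from replicate 2 by -0.27 to 0.13. In replicates 2 and 3 alone, 8 of the 77 genes (10.4%) differed by number, against 11.4% of all genes. Replicate 1 was the highest of the 3 libraries in each of the 3 groups for 22 genes and the lowest in each for 12. The sums of the epithelial, line and other cell type markers moved with the same libraries, as given above, and their part in these differences was not tested.

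**Figure D4:**
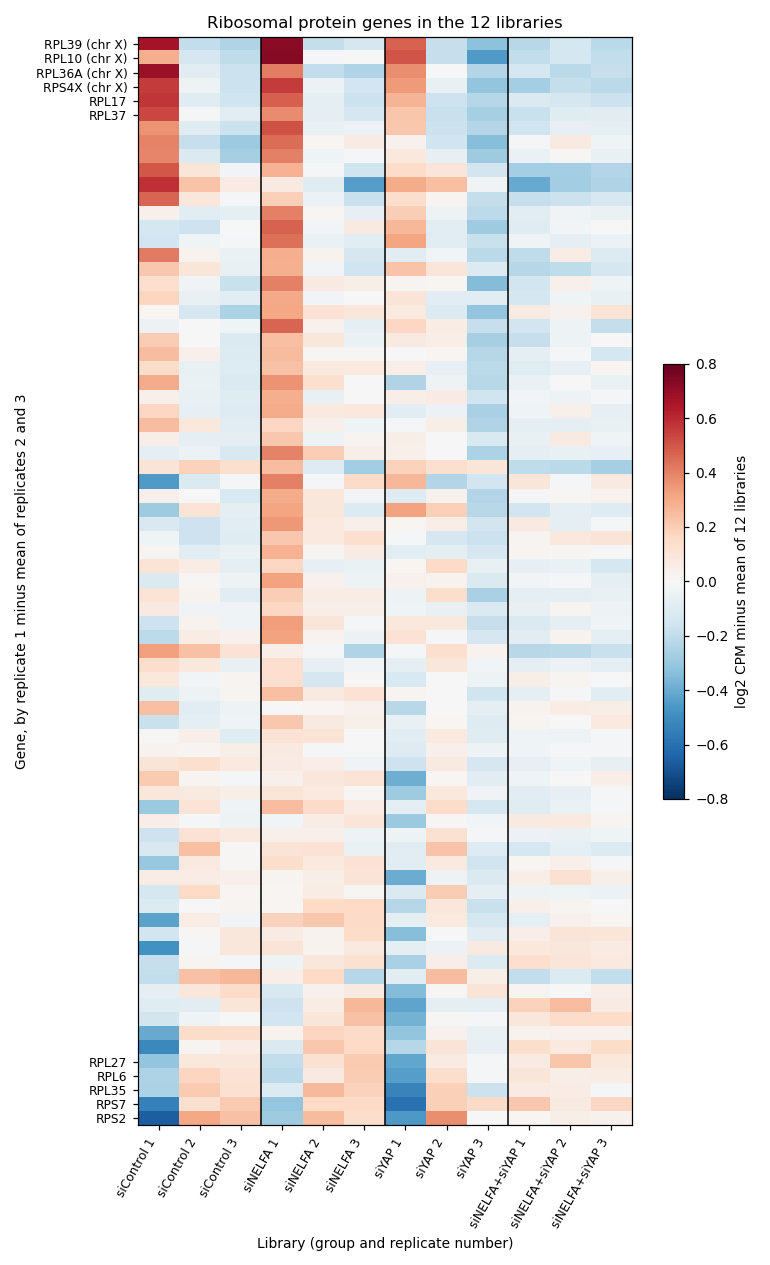
Log2 CPM of each of the 77 genes minus its mean over the 12 libraries, in color, with genes ordered by the difference between replicate 1 and the mean of replicates 2 and 3 and those at both ends named. The replicate 1 columns of siControl, siNELFA and siYAP carry the strongest colors, from RPL39 at the top (0.83) to RPS2 at the bottom (-0.69), and the siNELFA+siYAP columns do not.

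The 4 members on the X chromosome had the 4 highest differences of the list. RPL39, a small protein of the exit tunnel, was 277, 152 and 148 CPM for siControl, 287, 153 and 159 for siNELFA, 242, 153 and 139 for siYAP, and 150, 158 and 150 for the double knockdown. RPS4X, a small subunit protein, was 598, 395 and 360 CPM for siControl, 598, 393 and 365 for siNELFA, 513, 390 and 326 for siYAP, and 335, 355 and 349 for the double knockdown. In both genes the replicate 1 library was high in the 3 groups, and the double knockdown lay near their replicates 2 and 3. The difference between replicate 1 and the mean of the others was 0.83 for RPL39 (edgeR adjusted p = 1.192e-06), 0.67 for RPL10 (adjusted p = 2.014e-05 by edgeR), 0.64 for RPL36A (adjusted p = 3.46e-05 by edgeR) and 0.62 for RPS4X (adjusted p = 1.033e-05 by edgeR). RPL10, which lies near the peptidyl site, was 474, 353 and 338 CPM for siControl, 642, 385 and 390 for siNELFA, 549, 342 and 283 for siYAP, and 338, 352 and 339 for the double knockdown. RPL36A shares its locus with a read-through gene, as does RPL17.

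The position on X was looked at after these values were seen. Over the 391 X-linked genes averaging at least 50 counts, the median difference was 0.40, and it was 0.40, 0.39 and 0.38 in siControl, siNELFA and siYAP taken singly, against -0.04 over 12971 genes of all chromosomes. With the trend on GC content removed in 20 bins of genes, the X-linked median was 0.43 and that of the 4 members 0.72. Chromosome 4 had the next highest median, at 0.32, and its members RPL34, RPL9 and RPS3A a median of 0.33. On chromosome 18 the median was 0.18, and RPL17, its 1 member, lay at 0.59. Chromosome 13 had the lowest median, at -0.31, where RPL21 lay at -0.10. Among the members lower in replicate 1, RPS2, at the mRNA entry site, was 378, 739 and 703 CPM for siControl, 490, 712 and 659 for siNELFA, 434, 771 and 600 for siYAP, and 603, 618 and 612 for the double knockdown. RPS7 followed at -0.65, RPL35 at -0.43, RPL6 at -0.42 and RPL27 at -0.40. RPS2 on chromosome 16 and RPS7 on chromosome 2 lay further down than the medians of their chromosomes, -0.23 and -0.17.

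**Figure D5:**
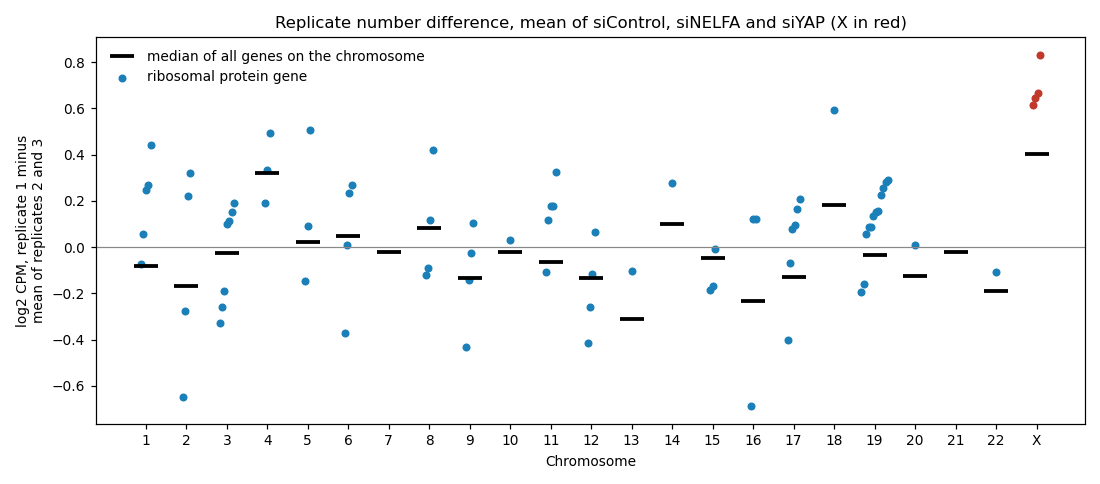
Difference in log2 CPM between replicate 1 and the mean of replicates 2 and 3, averaged over siControl, siNELFA and siYAP, for each ribosomal protein gene (points, X in red) and for the median of all genes on its chromosome (bars). The 4 X-linked members lie between 0.62 and 0.83, above the X median of 0.40.

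The likeness of levels between members is given as a description over the 12 libraries, which share groups and replicate numbers. Whether the genes named with RPS25 and with RPS4X form separate sets was not tested. RPS25 was most like RPL23 (Pearson r = 0.92 of log2 CPM over 12 libraries), RPS3A (0.89), RPL31 (0.88), RPL10A (0.84) and RPL14 (0.82), and least like RPS10 and RPS27A (both -0.78). Those 5 genes are the other members at a nominal p under 0.05 in the double knockdown. The libraries that gave these p-values are among the 12, so the match is not independent. RPS4X was most like RPL39 and RPL17 (both 0.97), RPL37 (0.96), and RPL34 and RPL36A (both 0.95), and least like RPS7 (-0.89). RPL39 varied most of all members, with a coefficient of variation of 30.01% against a median of 10.3%.

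Genes of the neighbouring pathways were read from lists drawn up by function. The 78 mitochondrial ribosomal protein genes, which serve the separate ribosome of the mitochondria, had median log2 fold changes of 0.01, -0.03 and -0.02 in the 3 comparisons. Their share of counts was 0.284% ± 0.0431 in siControl and 0.285% ± 0.00433 in the double knockdown. The 50 translation factors had medians of 0.05, -0.09 and 0.02, and the 55 genes of ribosome assembly and RNA polymerase I had -0.03, -0.13 and -0.00, with 46 of the 55 lower after siYAP. These values include the replicate 1 libraries and are not given without them. The adjusted threshold was not reached by any gene of these 3 lists in the 3 comparisons. With the block, 1 of the 78 mitochondrial ribosomal protein genes and 1 of the 50 translation factors were called after siNELFA, both lower. In that fit 5.21% of all genes passed the adjusted threshold. Of the 8 paralogs whose symbols end in L, 6 were tested. RPL7L1 averaged 507 ± 133 CPM in siControl and 387 ± 92.9 in siNELFA (log2 fold change -0.39, SE 0.26), and passed the adjusted threshold with the block (edgeR adjusted p = 0.0212). RPL22L1, which can replace RPL22, averaged 30.1 ± 2.25 CPM in siControl and 19.5 ± 0.704 in the double knockdown (log2 fold change -0.64, SE 0.13, edgeR adjusted p = 0.0811). RPL39L lay at -0.55 (SE 0.36), RPL26L1 at 0.40 (SE 0.25), RPL36AL at -0.18 (SE 0.18) and RPS27L at -0.07 (SE 0.43) after siNELFA. RPL3L had at most 2 counts in a library and RPL10L had none, where a count of 0 allows up to 3.

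Processed copies of these genes limit the precision of single values. The table lists 1108 ribosomal protein pseudogenes, 591 of them with a count, and 76 of the 77 genes have at least 1, with 93 for RPL23A. Pseudogenes took 0.0464% to 0.0841% of the counts of a library, against 2.59% to 2.96% for the 77 genes. How reads that match a gene and its copy were assigned is not given in the sources used here.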

How the data were processed

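Total RNA of 12 MDA-MB-231 libraries (4 groups of 3) was depleted of ribosomal RNA, made into stranded libraries and sequenced by the authors, who aligned reads with STAR to GRCh38 (Ensembl release 87). The deposited counts are unnormalised reads per gene assigned by featureCounts. TPM was deposited as well, scaled by the authors within each library, and 94 further lines of repeated identifiers were summed. A deposited FPKM table was not used because the TPM table holds the same kind of quantity on a common total. Options of the counting step are not given in the sources used here.

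Each knockdown was compared with siControl on 6 libraries with edgeR 4.0.16, using its quasi-likelihood test, TMM scaling and a minimum level (filterByExpr with 10 counts in a library, 15 in total and 70% of a group) in R 4.3.3, with Benjamini-Hochberg adjustment over all genes tested. Genes were called at an adjusted p under 0.05. The replicate number was tested by an F test in 9 libraries with group as covariate. Alternatives used DESeq2 1.42.0, limma 3.58.1 on log2 TPM with pseudocounts of 1 and 0.1 (genes with at least 1 TPM in 3 libraries), RLE or total-count scaling, other filters, all 12 libraries, a replicate block and leaving out each library. Offsets for GC content and length (lowess span 30%) and fits on replicates 2 and 3 alone were added after seeing the data. So were DESeq2 and limma with the replicate block. Standard errors are the fold change over the square root of the F value. The edgeR steps were tested on simulated counts with known fold changes. Recovery of the changed genes was required only at a low, set spread between libraries. That test therefore does not show what could be detected in these libraries.

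Whether equal numbers mark pairs was tested in the 12971 genes with a mean of 50 counts or more. A library's departures from its group's mean correlated by 0.641 to 0.886 between same-numbered libraries of siControl, siNELFA and siYAP, and by -0.0525 to 0.0258 with siNELFA+siYAP. The numbers come from the labels, and differently numbered libraries were not compared. Departures within a group cancel, and replicate 1 stood apart in the first 3 groups. Those correlations alone therefore cannot show that numbers 2 and 3 mark pairs. In edgeR's fit of replicates 2 and 3 alone, 11.4% of all genes differed by number past the adjusted threshold. The numbers of the double knockdown showed no likeness to the other groups.

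The methods describe the RNA as from 3 independent biological replicates, but the names of the double-knockdown libraries are numbered within a single N1, so their p-values may measure technical spread only. Values of role groups and GC content without the replicate 1 libraries were added after seeing the data. Floors and intervals of counts cover counting error only. GC content, length and gene coordinates are of GENCODE release 44 on GRCh38, and start regions of RefSeq GRCh38.p14. Members were named if past the adjusted threshold (the 5 with the largest change in each direction), or, where none passed, as the 3 highest and 3 lowest fold changes, and also as the 5 highest and 5 lowest TPM and as a fixed set of role genes. Members outside this rule were named after their values were seen. The members and lists were chosen with earlier results of these data known. Python 3.11.15 and matplotlib 3.10.9 were used.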

Additional observations from a re-analysis of the deposited data

How the results depend on the processing

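Under every alternative the siYAP comparison called 0 ribosomal protein genes, as did leaving out any library in siNELFA. In siNELFA, 1 gene was called with the replicate block and with DESeq2 plus replicate block, and 6 with the GC and length offsets plus block, while the double knockdown gave 1 by DESeq2 and 0 to 14 when a library was left out, the 14 without siControl replicate 1. No other alternative called a member there. The replicate number test called 29 of the 77 genes, against 8260 of all 18193 genes tested. Its alternatives are given with the count called over all genes in brackets. They called 17 on TPM (4702), 7 with all 12 libraries (3797), 47 with GC and length offsets (9877) and 8 on replicates 2 and 3 (2129). Leaving out a library gave 19 to 39, with 19 without siNELFA replicate 3 (7026) and without siYAP replicate 3 (7241). The siNELFA+siYAP numbers do not pair with siControl, and the replicate block there left 2 genes called overall and no member.

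On TPM the median of the members moved to -0.125 in siNELFA (both pseudocounts, and with the replicate block). The median of all genes there was -0.193 with a pseudocount of 1 and -0.217 with 0.1. In the double knockdown the members moved to -0.171 on TPM, where all genes lay at -0.131 and -0.145. GC and length offsets gave -0.0995 for the members there and, with the block, -0.0939 (all genes -0.0179 and 0.00443). Leaving out a library gave medians of 0.03 to 0.12 in siNELFA, -0.12 to -0.02 in siYAP and -0.05 to -0.02 in the double knockdown. The difference in share of counts turned to -0.634 on TPM and ranged from -0.0098 to 0.0922 in siNELFA, from -0.172 to 0.0123 in siYAP and from -0.139 to -0.0372 in the double knockdown when a library was left out. The share differences were reversed without siControl replicate 1 (siNELFA, -0.0098) and without siYAP replicate 1 (siYAP, 0.0123). With the replicate block (3 pairs, smallest exact p 0.25) the share differences stay at 0.044, -0.0577 and -0.0853 by construction, so the block is no check of them. The numbers of the double knockdown do not pair with siControl.

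Among single genes in siNELFA, the sign turned on TPM with a pseudocount of 1 (also with the block) and of 0.1 for RPLP0 (-0.0725 and -0.0726), RPLP1 (-0.0184 and -0.0185) and RPS19 (-0.00685 in both), and without siNELFA replicate 1 for RPL10 (-0.000249, with a range up to 0.4565 when a library was left out). In the double knockdown RPLP2 turned on TPM (-0.0211 in both) and with GC and length offsets (-0.0580, and -0.0498 with the block), and RPL39 without siControl replicate 1 (0.0220, with a range down to -0.4969). On TPM with a pseudocount of 1 the median of all genes was -0.193 in siNELFA and -0.131 in the double knockdown. None of the single genes whose sign turned was called. The cause was not tested. Half-widths of the 95% intervals had medians of 0.38 in siNELFA, 0.41 in siYAP and 0.27 in the double knockdown, which limits the changes that could be detected in those fits.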
